A study of Mus musculus with 2 samples.

Results

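Nuclear receptors are transcription factors that carry a ligand-binding pocket, so that hormones, lipids, bile acids, vitamins or foreign compounds can set the activity of their target genes. The genes described here are 39 mouse nuclear receptor genes, taken by symbol from the 24421 gene symbols of the series. They were chosen with earlier results of these data known. Rora and Pparg are not among them, while Rorb, which encodes a relative of RORα, is. All 39 symbols were present in the count tables. They were sorted by the ligand class of the encoded protein into 13 classes, from steroid receptors to orphan receptors without an established hormone.

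In the liver, many of these receptors bind DNA as a pair with a retinoid X receptor (RXR). The lipid sensors among them (PPARα, LXR and FXR) govern fat oxidation, sterol export and bile acid synthesis, and CAR and PXR govern the clearance of foreign compounds. HNF4α and LRH-1 hold hepatocyte identity and bile acid genes, and the NR4A receptors are induced within a short time by cyclic AMP and stress signals. RORα, the receptor targeted in this study, shares the core DNA sequence AGGTCA with many of them.

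Liver of male C57BL/6 mice was profiled by RNA-seq after 12 weeks on a high-fat diet (HFD) that began at 6 weeks of age. The library labelled LKO came from mice with floxed Rora alleles and Cre under the albumin promoter (RORα f/f:Alb-Cre), and the control library came from mice with the same floxed alleles and no Cre (RORα f/f). Albumin-driven Cre is known to act in hepatocytes, and which cells of these livers had recombined was not tested. The study set out, by its title, to identify genes altered by RORα as non-alcoholic steatohepatitis progresses. Each genotype has 1 library, and the labels do not say whether it came from 1 animal or a pool, so no difference has a replicate check and no test was made.

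Read counts summed to 131843686 in the library labelled LKO and 128201591 in the control library. Rora itself had 3677 counts in the library labelled LKO and 3701 in the control library, or 24.1 and 33.4 CPM, where CPM are counts scaled to a common library total with TMM factors (trimmed means of M-values). The raw counts were near-equal, and in CPM Rora was 1.38-fold (interval 1.32 to 1.45) lower in the library labelled LKO. A total over the whole gene does not show whether floxed exons were lost, so these values do not settle the label. The name "library labelled LKO" is therefore kept wherever a direction is given. Hepatocyte markers were abundant in both libraries, with 7 marker genes summing to 119571 CPM in the library labelled LKO and 161405 CPM in the control library. Of the adipocyte markers, Lep, Plin1 and Retn were at 0 counts in both libraries, as was S100a8 of the neutrophil markers. Markers of other liver cells moved in both directions. The 11 stellate cell markers summed to 574 and 408 CPM (library labelled LKO and control), the 8 endothelial markers to 211 and 184 CPM, and the 8 Kupffer cell markers to 50.8 and 88.0 CPM. Cholangiocyte markers summed to 44.4 and 56.5 CPM, T and B cell markers to 1.78 and 3.12 CPM, neutrophil markers to 5.52 and 5.96 CPM and adipocyte markers to 21.6 and 12.0 CPM. Nearly all of the neutrophil sum was Csf3r, at 5.36 and 5.87 CPM, and nearly all of the adipocyte sum was Cfd, at 21.5 and 12.0 CPM. Most of the cholangiocyte sum was Spp1, at 40.2 and 51.6 CPM. Ecm1, at 270 and 189 CPM, and Dcn, at 210 and 158 CPM, made up most of the stellate cell sum. In bulk liver, fewer cells of a type and less RNA per cell cannot be told apart, and the part of these shifts in the receptor values was not tested.

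Most receptor genes differed little between the libraries, and a few stood well apart. A gene was counted as measured at a mean of at least 1 CPM and a summed count of at least 20, which 29 of the 39 receptor genes met, all 29 with more than 1 CPM in each library. Past a threshold of 1.5-fold, with a 95% counting interval that excluded 1, were 5 genes with more transcript in the library labelled LKO (Esrrg, Nr1i3, Thra, Ppara and Rxrg) and 1 with less (Nr4a1). Over all 11137 measured genes, 10.5% were higher and 9.76% lower by the same rule, or 20.3% in either direction. The intervals cover counting error only and may be too narrow, since a read may have been counted once per annotated transcript. The receptor genes gave 20.7% in either direction, so the share that differed was near that of genes in general. At a threshold of 2-fold, 1 receptor gene was higher (Esrrg) and 0 were lower, against 3.83% and 2.62% of all measured genes, or 6.45% in either direction. The median log2 ratio, library labelled LKO over control, was 0.19 over the 29 receptor genes and −0.003 over all measured genes, and 20 of the 29 had a ratio above 1, against 49.7% of all measured genes.

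Scaling sets where this balance lies. Scaling by total count instead of TMM raises each log2 ratio by 0.42. Under it 15 receptor genes passed 1.5-fold upwards and 0 downwards, against 34.6% and 2.53% of all measured genes, and 8 of the 9 measured receptor genes with a negative log2 ratio turned positive (Nr4a1 being the exception). Ratios of 2 receptor genes within the same library do not depend on scaling and are given below for close relatives.

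**Figure D1:**
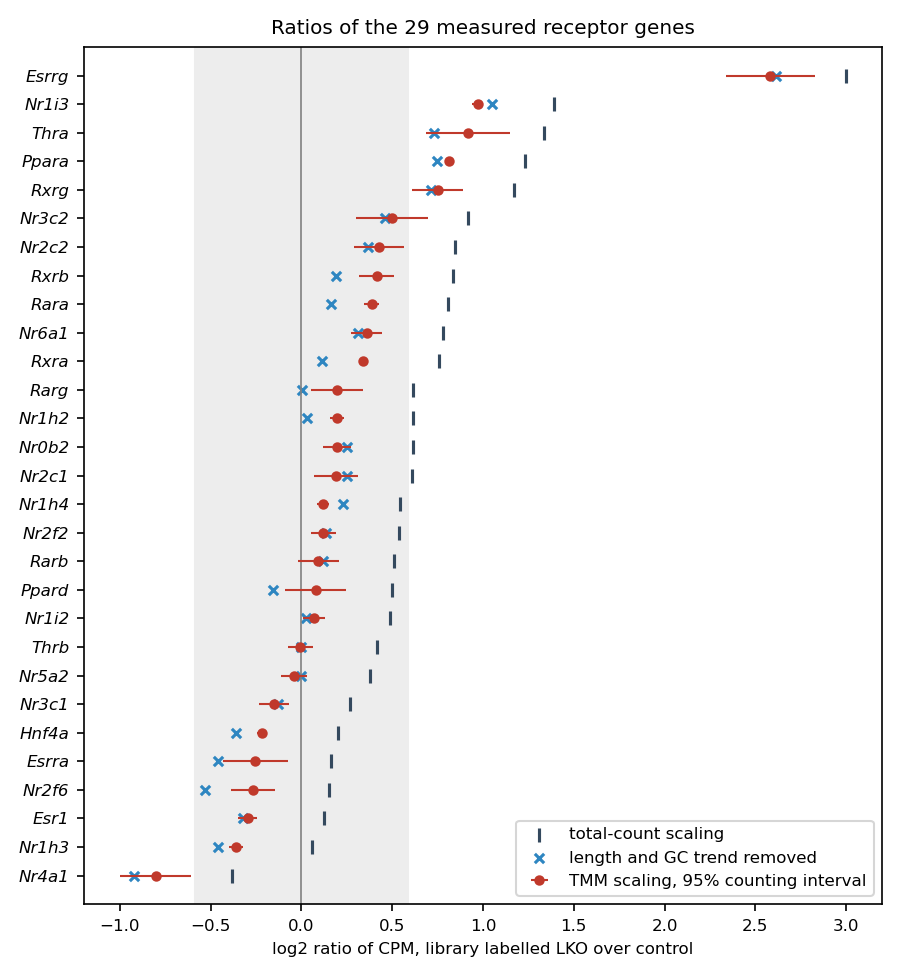
Log2 ratio of TMM-scaled CPM (horizontal axis, library labelled LKO over control) for the 29 measured receptor genes (vertical axis), with 95% counting intervals as bars, the ratio under total-count scaling as vertical ticks and the ratio corrected for length and GC content of the transcript as crosses. The grey band marks ratios within 1.5-fold, and Esrrg at 2.58 and Nr4a1 at −0.80 lie at the ends.

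Receptor genes differed widely in transcript level. Levels of different genes are compared as CPM per kb of the longest curated transcript. CAR (Nr1i3) stood first in both libraries, at 152 CPM per kb in the library labelled LKO and 77.4 in the control library. With the median length of the curated transcripts Rxra came first and Nr1i3 next in both, and 936 of the 1414 curated exon bases of Nr1i3 overlap Tomm40l, whose reads cannot be told apart from its own. Next in the library labelled LKO came Ppara at 87.4, Rxra at 79.97, Nr1h4 at 62.2, Nr1h2 at 48.2, Hnf4a at 43.8 and Nr1h3 at 39.1 CPM per kb. The control library had Rxra at 63.2, Nr1h4 at 57.2, Hnf4a at 51.0, Nr1h3 at 50.2, Ppara at 49.7 and Nr1h2 at 42.1 CPM per kb. The same 10 genes led in both libraries, with Rara, Nr0b2 and Nr1i2 in places 8 to 10. Ppara held place 2 in the library labelled LKO and place 6 in the control library, while Hnf4a held place 6 and place 4. With counts divided by the number of curated transcripts, however, Ppara held place 2 and Hnf4a place 6 in both libraries, and with median lengths Ppara held place 3 in the library labelled LKO and place 4 in the control library, so these shifts of place depend on how transcripts are treated. Places 4, 5 and 6 in the control library (Hnf4a, Nr1h3 and Ppara) lay between 49.7 and 51.0 CPM per kb, and their order there turns on small differences. In all, 28 receptor genes reached 1 CPM per kb in the library labelled LKO and 25 in the control library.

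**Figure D2:**
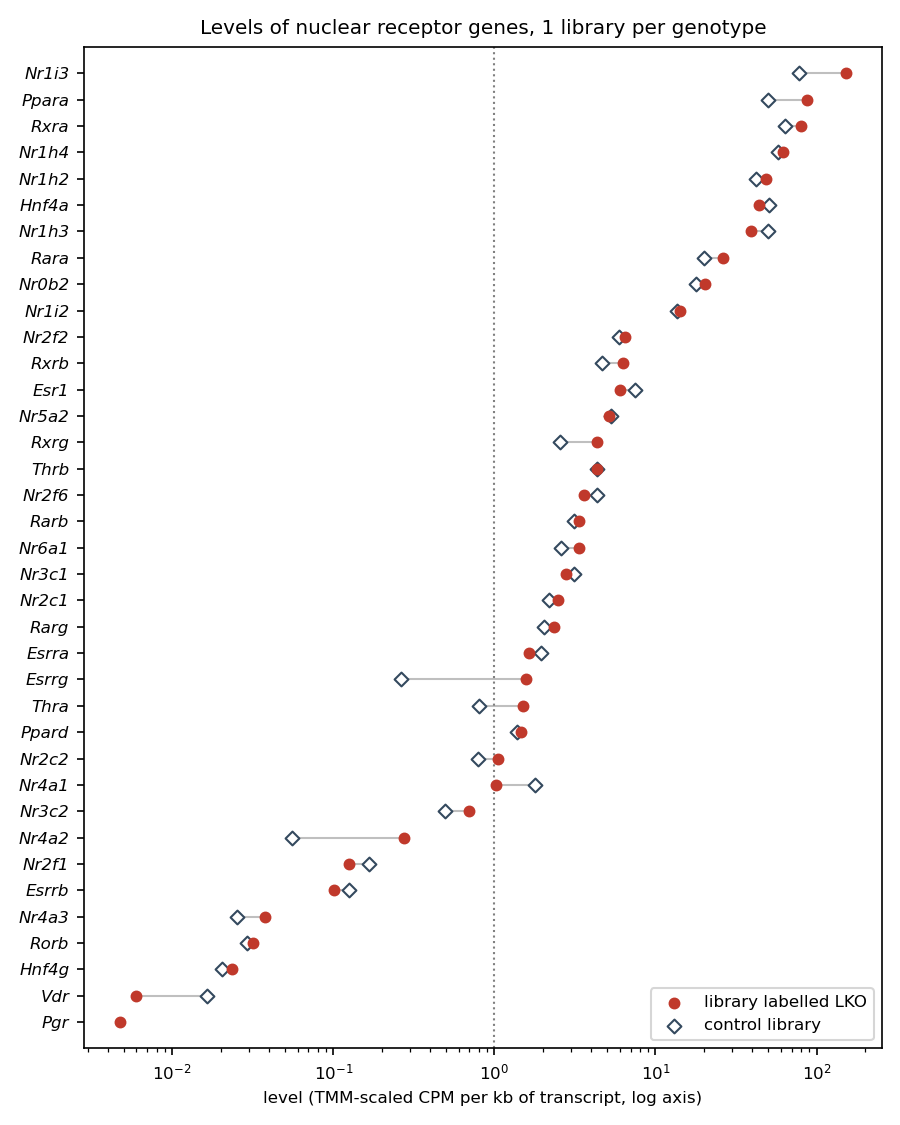
Level of each receptor gene with at least 1 count in either library, in TMM-scaled CPM per kb of transcript on a log axis, with filled circles for the library labelled LKO and open diamonds for the control library, 1 library each. CAR (Nr1i3) is first in both with these lengths, and the widest gap among measured genes is that of Esrrg, at 1.56 CPM per kb in the library labelled LKO and 0.262 in the control library.

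Among ligand classes, receptors of foreign compounds and of fatty acids made up a larger part of the receptor transcripts in the library labelled LKO. Summed over members, the xenobiotic class stood at 166 CPM per kb in the library labelled LKO and 91.0 in the control library, which was 26.2% and 18.3% of the level of all 39 genes. The fatty acid class stood at 88.8 and 51.1 CPM per kb, or 14.0% and 10.3%. In contrast, the oxysterol and bile acid class was at 149.6 CPM per kb in the library labelled LKO and 149.5 in the control library, a share of 23.6% and 30.0%. Retinoid X receptors stood at 90.5 and 70.5 CPM per kb, a share of 14.3% and 14.2%. HNF4 receptors were at 43.8 and 51.0 CPM per kb and steroid receptors at 9.56 and 11.0, with ratios of 0.859 and 0.866 that total-count scaling turns above 1. These sums are led by 1 gene in the xenobiotic, fatty acid, HNF4 and RXR classes. In the xenobiotic class that gene is Nr1i3, at 152 and 77.4 CPM per kb. Its reads cannot be told apart from those of Tomm40l where the 2 genes overlap, so the xenobiotic sums and shares are uncertain. All class sums use the longest curated transcript, and the order of genes changed with other treatments of transcripts.

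**Figure D3:**
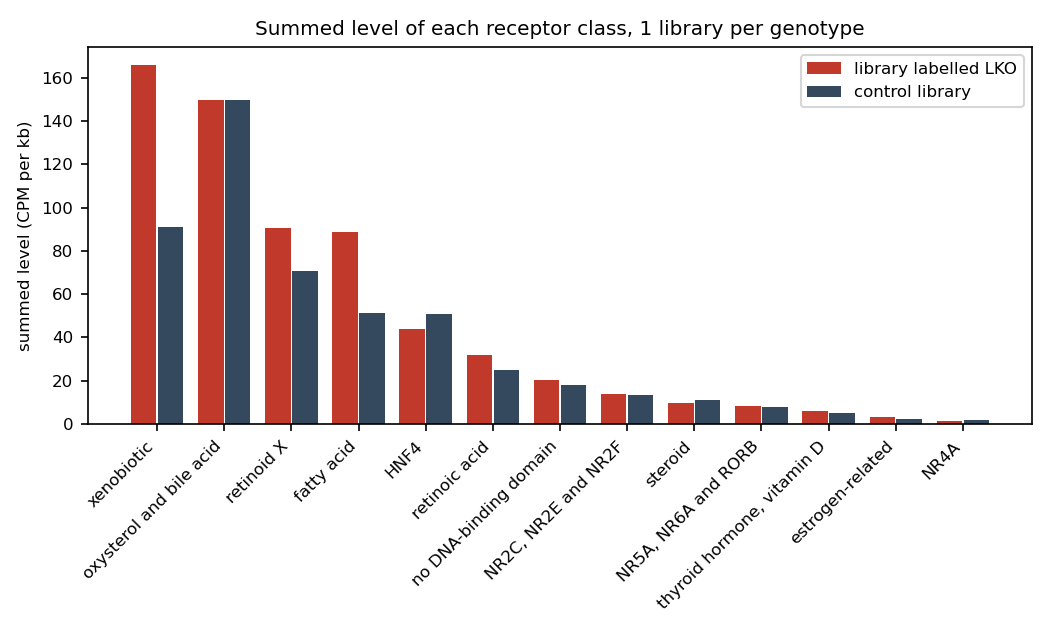
Summed level of each receptor class in CPM per kb (vertical axis, from 0), with the library labelled LKO at left and the control library at right of each pair, 1 library each and no error bars. The xenobiotic class, led by Nr1i3, whose exons overlap Tomm40l, is at 166 and 91.0, while the oxysterol and bile acid class is at 149.6 and 149.5.

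The RXR genes encode the shared partner of PPAR, LXR, FXR, CAR, PXR, retinoic acid, thyroid hormone and vitamin D receptors. Rxra, the hepatocyte form, had 59809 counts in the library labelled LKO and 34377 in the control library, or 392.2 and 310 CPM, a ratio of 1.26 (interval 1.25 to 1.28). Rxrb, which is expressed in most tissues, was at 16.4 and 12.3 CPM, a ratio of 1.33. Rxrg, better known from muscle and brain, was at 9.12 CPM in the library labelled LKO and 5.42 CPM in the control library, 1.68-fold (interval 1.53 to 1.85) higher, and was the RXR gene past the threshold. All 3 ratios were above 1, and with total-count scaling all 3 genes passed the threshold. Within a library, Rxrg made up 0.0233 counts per Rxra count in the library labelled LKO and 0.0175 in the control library, a ratio of ratios of 1.33 (95% Woolf interval 1.21 to 1.47). For Rxrb against Rxra the ratio of ratios was 1.05, with an interval (0.986 to 1.13) that held 1. Corrected for length and GC content of the transcripts, the log2 ratios were 0.72 for Rxrg, 0.19 for Rxrb and 0.12 for Rxra.

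Rxrg spans bases 167598384 to 167639623 of chromosome 1 on the plus strand (GRCm38, the assembly of mm10). Of its 2 promoter windows in the RefSeq table (GRCm38.p6, 250 bases before to 50 after a start), the inner one, chr1:167618015-167618314, holds AAGGTCA, the core AGGTCA with an A before it, a form that ROR proteins can bind. It is shown because it is the window with this form among the receptor genes past the threshold. Capitals mark the match.

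Rxrg promoter: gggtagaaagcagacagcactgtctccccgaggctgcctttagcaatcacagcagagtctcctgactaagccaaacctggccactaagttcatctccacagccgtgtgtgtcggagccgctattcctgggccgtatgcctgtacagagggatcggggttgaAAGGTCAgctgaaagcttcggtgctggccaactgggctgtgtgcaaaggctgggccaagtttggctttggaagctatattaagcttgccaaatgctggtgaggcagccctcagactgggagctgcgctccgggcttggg

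AAGGTCA, on either strand, was present in 3 of 55 windows of receptor genes (Rxrg, Rxra and Nr6a1) and in 4.72% of all 32851 windows. The shorter core AGGTCA, which every AAGGTCA match contains, was in 9 of the 55 windows, or 16.4%, and in 16.3% of all. TAGGTCA was in 0 of the 55 and in 2.61% of all. Windows were found for 36 of the 39 genes. A match is a description of these letters, not a site, and the receptor promoters held such letters about as often as promoters in general. They were richer in CG pairs, with a median of 12 per window, against 7 in all windows.

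Fatty acid receptors were unequal in both level and ratio. Ppara, which drives hepatic fatty acid oxidation in fasting, had 45467 counts in the library labelled LKO and 18800 in the control library, or 298 and 170 CPM, 1.76-fold (interval 1.73 to 1.79) higher. Ppard, a widely expressed relative, was at 4.79 and 4.54 CPM, a ratio of 1.06 (interval 0.940 to 1.18). The libraries thus stood apart in Ppara, and the interval for Ppard held 1. There were 62.3 Ppara counts per Ppard count in the library labelled LKO and 37.4 in the control library, a ratio of ratios of 1.67 (interval 1.49 to 1.87). Ppara spans bases 85734983 to 85802819 of chromosome 15 (plus strand).

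LXR and FXR genes lay within 1.5-fold with TMM scaling, and the LXR pair had ratios on opposite sides of 1. Nr1h3 encodes LXRα, the oxysterol receptor of liver and macrophages. It stood at 76.5 CPM in the library labelled LKO and 98.2 CPM in the control library. The log2 ratio was −0.36, or 0.06 with total-count scaling and −0.46 with the length and GC correction. Nr1h2 encodes LXRβ, found in most cells, and stood at 96.3 and 84.2 CPM, a log2 ratio of 0.19. Per Nr1h2 count there were 0.794 Nr1h3 counts in the library labelled LKO and 1.17 in the control library. The ratio of ratios was 0.681 (interval 0.656 to 0.707). LXRβ thus had the larger count in the library labelled LKO and LXRα in the control library. With counts divided by the number of curated transcripts, however, Nr1h3 stood above Nr1h2 per kb in both libraries. Kupffer cells also express Nr1h3, and Kupffer markers were lower in the library labelled LKO (6 of 7 measured by at least 1.5-fold), a shift whose part in the Nr1h3 value was not tested. Over all measured genes 9.76% were lower. With total-count scaling 1 of the 7 was lower (Timd4) and 1 higher, against 2.53% and 34.6% of all measured genes. Nr1h4, which encodes the bile acid receptor FXR, was at 125 and 115 CPM, a log2 ratio of 0.12. Nr0b2 encodes SHP, an FXR-induced repressor without a DNA-binding domain, and was at 23.1 and 20.2 CPM, a log2 ratio of 0.19. With total-count scaling Nr1h2 and Nr0b2 passed the threshold, each at 0.61.

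Of the xenobiotic receptors, CAR passed the threshold and PXR did not. Nr1i3 had 32690 counts in the library labelled LKO and 12126 in the control library, or 214 and 109 CPM, a log2 ratio of 0.97 (interval of the ratio 1.92 to 2.001). Nr1i2, which encodes PXR, was at 36.5 and 34.8 CPM, a ratio of 1.05 (interval 1.01 to 1.09). Nr1i3 counts per Nr1i2 count were 5.88 in the library labelled LKO and 3.14 in the control library, a ratio of ratios of 1.87 (interval 1.79 to 1.958). Nr1i3 spans bases 171213970 to 171220701 of chromosome 1 (plus strand), and 936 of its 1414 curated exon bases overlap exons of Tomm40l, a gene for a mitochondrial import protein on the opposite strand. Tomm40l had 11734 counts in the library labelled LKO and 4380 in the control library, 1.95-fold (interval 1.88 to 2.02) higher. The labels do not say whether counting used strand, so reads of Nr1i3 and Tomm40l cannot be told apart and both values are uncertain.

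Thyroid hormone receptors differed from each other. Thrb, whose product is the main thyroid hormone receptor of liver, was nearly equal at 26.7 CPM in the library labelled LKO and 26.9 CPM in the control library. Thra, the form that predominates in heart and brain, was at 3.69 CPM (563 counts) in the library labelled LKO and 1.958 CPM (217 counts) in the control library, 1.89-fold (interval 1.61 to 2.22) higher. Per Thrb count there were 0.138 Thra counts in the library labelled LKO and 0.0729 in the control library. Thra spans bases 98740638 to 98769006 of chromosome 11 (plus strand), and 263 of its 3158 curated exon bases overlap the clock repressor gene Nr1d1 on the opposite strand. Nr1d1 was at 9.82 and 6.23 CPM, 1.57-fold (interval 1.44 to 1.73) higher, and its reads in the overlap cannot be told apart from those of Thra. Vdr, the vitamin D receptor gene, had 4 counts in the library labelled LKO and 8 in the control library, too few to compare.

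Retinoic acid receptors had ratios above 1 but within 1.5-fold with TMM scaling. Rara, the most abundant, was at 88.3 CPM in the library labelled LKO and 67.5 CPM in the control library, a log2 ratio of 0.39 that became 0.16 with the length and GC correction. Rarb, itself a target of retinoic acid, was at 10.4 and 9.76 CPM, with an interval of its ratio from 0.986 to 1.15. Of its curated exon bases 1793 of 3108 overlap Top2b on the opposite strand. Rarg was at 6.89 and 6.02 CPM, a log2 ratio of 0.20. With total-count scaling Rara at 0.81 and Rarg at 0.62 passed the threshold.

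Steroid receptors did not pass the threshold with TMM scaling. Esr1, the estrogen receptor α gene, was at 38.4 CPM in the library labelled LKO and 47.2 CPM in the control library, a log2 ratio of −0.30, which turns to 0.12 with total-count scaling. Nr3c1, which encodes the glucocorticoid receptor, was at 17.7 and 19.6 CPM, a log2 ratio of −0.15 and 0.27 with total-count scaling. Nr3c2 encodes the mineralocorticoid receptor and was at 3.96 and 2.81 CPM, a ratio of 1.41 (interval 1.23 to 1.62). Its log2 ratio of 0.50 became 0.92 with total-count scaling and 0.62 with totals that leave out the 20 most abundant genes, past the threshold under both. Pgr, the progesterone receptor gene, had 5 counts in the library labelled LKO and 0 in the control library, where a count of 0 allows up to 0.0271 CPM (3 counts).

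Estrogen-related receptors bind DNA without a known hormone and drive genes of mitochondrial energy use. Esrrg gave the largest ratio of the 29 measured genes. It had 1282 counts in the library labelled LKO and 156 in the control library, or 8.41 and 1.41 CPM, 5.97-fold (interval 5.06 to 7.10) higher, and its log2 ratio lay between 2.58 and 2.998 under the scalings tried. Esrra, the form that is common in oxidative tissues, was at 3.67 and 4.38 CPM, a log2 ratio of −0.26. That ratio is 0.16 with total-count scaling and −0.46 with the length and GC correction. Esrra overlaps Trmt112 on the opposite strand over 73 of 2242 curated exon bases. Counts of Esrrg thus exceeded those of Esrra in the library labelled LKO, at 2.29 per Esrra count, and were fewer in the control library, at 0.322, a ratio of ratios of 7.13 (interval 5.80 to 8.76). Per length they were close in the library labelled LKO, at 1.56 CPM per kb for Esrrg and 1.64 for Esrra, against 0.262 and 1.95 in the control library. RefSeq has 5 curated transcripts for Esrrg and 1 for Esrra. If reads were counted once per transcript, Esrrg is overstated beside Esrra. Per kb, Esrra was by a small margin the higher of the 2 in the library labelled LKO, and such counting would make the margin larger. The level of Esrrg rests on its longest transcript, so this order is not firm. Esrrb, known from stem cells and the inner ear, had 66 and 60 counts and was not measured.

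Esrrg spans bases 187608791 to 188214885 of chromosome 1 (plus strand) and has 4 windows in the promoter table. The outermost, chr1:187608756-187609055, is shown because it belongs to the gene with the largest ratio and holds TATAAA, a core promoter element, on the minus strand, which 7 of 55 receptor windows and 13.6% of all windows hold on either strand. No AGGTCA was found in the 4 windows. Capitals mark the TATAAA match, read on the plus strand.

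Esrrg promoter: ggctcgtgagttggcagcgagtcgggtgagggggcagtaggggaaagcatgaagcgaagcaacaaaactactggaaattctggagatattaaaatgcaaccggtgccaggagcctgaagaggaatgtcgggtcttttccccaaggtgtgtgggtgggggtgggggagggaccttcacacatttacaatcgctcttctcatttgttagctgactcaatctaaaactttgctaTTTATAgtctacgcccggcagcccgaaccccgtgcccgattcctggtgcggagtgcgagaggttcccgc

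HNF4α and the orphan receptors LRH-1, NR6A1 and NR2C lay within 1.5-fold with TMM scaling. Hnf4a, a regulator on which hepatocyte identity rests, had 29092 counts in the library labelled LKO and 24625 in the control library. Its 191 and 222 CPM gave a log2 ratio of −0.22, or 0.20 with total-count scaling and −0.36 with the length and GC correction. Within a library, Ppara stood at 1.56 counts per Hnf4a count in the library labelled LKO and 0.763 in the control library. Rxra stood at 2.06 and 1.40. Nr5a2, which encodes LRH-1, a regulator of bile acid synthesis, was at 24.4 and 25.1 CPM, with an interval of the ratio that held 1. Nr6a1 encodes a germ cell nuclear factor and was at 19.8 and 15.5 CPM, a log2 ratio of 0.36. Among repressors of the NR2 family, Nr2c1 and Nr2c2, for the testicular receptors 2 and 4, had log2 ratios of 0.19 and 0.43. With total-count scaling Nr6a1 at 0.78, Nr2c1 at 0.61 and Nr2c2 at 0.85 passed the threshold. Of the curated exon bases of Nr2c2, 3533 of 7647 overlap Mrps25 on the opposite strand.

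The COUP-TF genes gave small ratios in both directions. Nr2f2 encodes COUP-TFII, a receptor known from veins and mesenchyme, and was at 27.2 CPM in the library labelled LKO and 25.1 CPM in the control library, a log2 ratio of 0.12. Endothelial markers, of which 0 of 8 measured were past 1.5-fold, had a median log2 ratio of 0.18, and stellate cell markers, of which 5 of 11 were higher and 0 lower, one of 0.51. With total-count scaling 4 of the 8 and 8 of the 11 were higher. Over all measured genes 10.5% were higher with TMM scaling and 34.6% with total-count scaling. The part of these marker shifts in the Nr2f2 value was not tested. Nr2f6 was at 8.001 and 9.63 CPM, a log2 ratio of −0.27, or 0.15 with total-count scaling and −0.53 with the length and GC correction. It overlaps Ocel1 on the opposite strand, which had the same count of 1220 in the library labelled LKO, while the control library had 1068 for Nr2f6 and 974 for Ocel1. Nr2f1, for COUP-TFI, had 61 and 59 counts and was not measured.

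NR4A genes are immediate early genes, and 1 of 3 was measured. Nr4a1, for NUR77, had 385 counts in the library labelled LKO and 488 in the control library, or 2.53 and 4.40 CPM, 1.74-fold (interval 1.52 to 1.998) lower. With total-count scaling its log2 ratio was −0.38, within 1.5-fold, and with the length and GC correction it was −0.92. Nr4a2, for NURR1, pointed the other way, with 149 counts in the library labelled LKO and 22 in the control library, or 0.977 and 0.198 CPM, below the filter. Nr4a1 counts per Nr4a2 count were 2.58 and 22.2. Nr4a3 had 33 and 16 counts.

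Nr4a1 spans bases 101254269 to 101274795 of chromosome 15 (plus strand). Its promoter window, chr15:101266596-101266895, is shown as that of the lowest ratio among measured receptor genes. It holds TGCGTCA, a variant of the element bound by the cyclic AMP factor CREB, 4 times, which 1 of 55 receptor windows and 2.12% of all windows hold on either strand. Capitals mark the matches.

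Nr4a1 promoter: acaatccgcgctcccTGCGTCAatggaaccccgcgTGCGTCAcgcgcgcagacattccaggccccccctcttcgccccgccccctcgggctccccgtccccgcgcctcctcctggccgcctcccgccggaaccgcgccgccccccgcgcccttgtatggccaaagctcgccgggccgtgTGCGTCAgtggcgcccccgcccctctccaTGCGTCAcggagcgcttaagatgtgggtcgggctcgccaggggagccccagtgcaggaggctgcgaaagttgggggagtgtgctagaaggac

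The 10 receptor genes that were not measured had at most 149 counts in a library. Nr0b1 and Nr2e3, known from the adrenal gland and the retina, had 0 counts in both libraries, which allows up to 0.0197 CPM in the library labelled LKO and 0.0271 CPM in the control library. Hnf4g, the HNF4 form of intestine and kidney, had 8 and 5 counts, and Rorb 45 and 30. At this depth, differences in Hnf4g, Rorb, Vdr, Pgr, Nr4a3, Esrrb and Nr2f1 were not detectable, each with a ratio interval that held 1.

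Textbook targets of the receptors were set beside the receptor genes themselves. Of 101 measured target genes in 10 lists, each counted once, 35 passed 1.5-fold upwards in the library labelled LKO and 11 downwards, around a median of 0.195 (log2), against 10.5% and 9.76% of all measured genes. With total-count scaling 52 targets were higher and 5 lower, against 34.6% and 2.53% of all measured genes. The lists were chosen with results of these libraries known, so their counts are no independent evidence of a direction. The lists overlap and hold genes that several receptors control. Negative log2 ratios and medians between −0.42 and 0 in what follows turn positive with total-count scaling. It also puts Bcl3, Cyp7a1, Cycs, Srd5a1, Hsp90aa1 and Hspa8 within 1.5-fold.

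The lists of the fatty acid and xenobiotic receptors had the highest medians. Of 14 targets of PPARα and PPARδ, 12 were higher and 0 lower around a median of 1.14 (log2), beside 0.81 for Ppara and 0.08 for Ppard. Cyp4a10 and Vnn1, a pantetheinase gene, were highest in ratio at 5.69-fold and 5.39-fold, and Ehhadh and Creb3l3 lowest, with log2 ratios of 0.34 and 0.03. Cyp4a10 has close copies, so its split of reads is uncertain. Of 15 targets of CAR and PXR, 9 were higher and 0 lower, with a median of 0.79, beside 0.97 for Nr1i3 and 0.07 for Nr1i2. Cyp2b10, the classical CAR target, had 618 and 12 counts and passed the filter through the library labelled LKO, as did Cyp2c55. Abcb1a, a drug efflux pump gene, was 3.42-fold (interval 2.92 to 4.01) higher, and the abundant Gstm1 was at 1596 and 926 CPM. Cyp2c29 and Gsta1 had log2 ratios of −0.35 and −0.22, which total-count scaling turns positive.

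**Figure D4:**
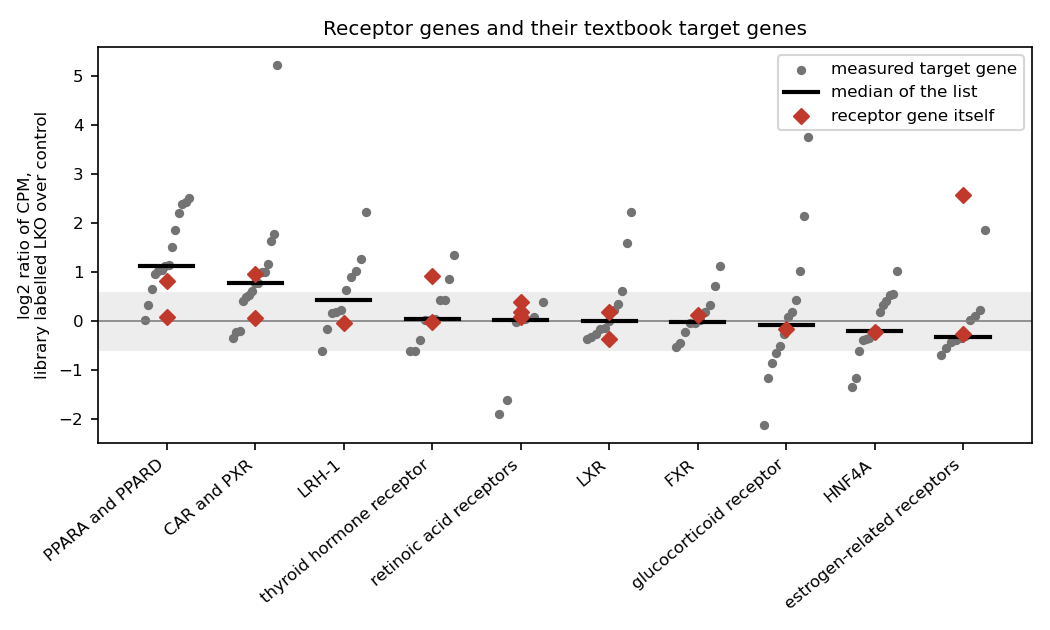
Log2 ratio of CPM (vertical axis, library labelled LKO over control) of the measured target genes in 10 receptor lists as grey points, with the median of each list as a black bar and the receptor genes themselves as red diamonds. The grey band marks ratios within 1.5-fold. The PPARA and PPARD list has a median of 1.14 and the list of the estrogen-related receptors one of −0.33, below the diamond of Esrrg at 2.58.

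Targets of the estrogen-related receptors did not stand where Esrrg stood. Of 10 measured, 1 was higher and 1 lower around a median of −0.33 (log2), which is smaller in size than the shift of 0.42 from total-count scaling. Pdk4, a pyruvate dehydrogenase kinase gene that PPARα also controls, was at 14.9 and 4.10 CPM, 3.63-fold higher. Cycs, the cytochrome c gene, was 1.60-fold lower, Cox5b had a log2 ratio of −0.55, Acadm one of 0.23 and Atp5b, the most abundant, one of −0.31. HNF4α targets had 1 of 14 higher and 3 lower, with a median of −0.21 beside −0.22 for Hnf4a. Cyp8b1 was at 278 and 137 CPM and Mttp at 302 and 205 CPM, while Tat and G6pc were 2.24-fold and 2.53-fold lower and Apoc3, the most abundant, had a log2 ratio of −0.36.

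Glucocorticoid receptor targets split, with 3 of 12 higher and 4 lower around a median of −0.08, beside −0.15 for Nr3c1. Mt2, a metallothionein gene, was at 20.03 and 1.47 CPM and Zbtb16 at 10.9 and 2.45 CPM, 13.6-fold and 4.43-fold higher. Sgk1, a kinase gene, was at 44.4 and 191 CPM, 4.31-fold (interval 4.19 to 4.43) lower, and Tat, the most abundant, was also among the lower genes. Of 8 genes for heat shock chaperones and cochaperones of steroid receptors, 1 was higher and 4 were lower around a median of −0.58 (log2). Over all measured genes 10.5% were higher and 9.76% lower. The higher one was Fkbp5 (2.03-fold), which is also counted in the glucocorticoid receptor list. With total-count scaling 1 was higher, 0 were lower and the median was −0.16. Hsp90aa1 was at 21.2 and 41.3 CPM, Hspa8, the most abundant, at 562 and 1027 CPM, and Ptges3 had a log2 ratio of −0.20.

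Thyroid hormone targets had 2 of 10 higher and 2 lower, with a median of 0.04. Me1, for malic enzyme, was the most abundant at 892 and 349 CPM and Gpd2 was 1.82-fold higher, while Bcl3 and Cyp7a1 were both 1.52-fold lower. In the list of genes that handle thyroid hormone and glucocorticoid, 1 of 9 measured was higher and 1 lower. Serpina7, for thyroxine-binding globulin, was at 18.2 and 3.75 CPM, 4.85-fold higher. Srd5a1, a steroid reductase gene, was 1.87-fold lower. Hsd11b1 and Ttr had log2 ratios of −0.29 and −0.33.

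Retinoic acid targets gave 0 of 6 higher and 2 lower. Cyp26a1, which degrades retinoic acid, was among the lower genes and had 149 counts in the library labelled LKO and 332 in the control library, 3.07-fold (interval 2.52 to 3.74) lower, and passed the filter through the control library. The 4 targets that were neither higher nor lower ran from Dhrs3 at −0.01 to Tgm2 at 0.39 on the log2 scale. The list of genes that handle retinoids had 1 of 13 measured higher, Rdh16 at 2.65-fold, and 2 lower, Cyp26a1 again among them. Aldh1a1, for a retinaldehyde dehydrogenase, had a log2 ratio of 0.41 and Ttr was the most abundant.

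LXR and FXR targets passed 1.5-fold in either direction in shares of 27.3% and 20%, against 20.3% of all measured genes. All those that passed were higher, while 10.5% of all measured genes were higher and 9.76% lower. Of 11 measured LXR targets 3 were higher and 0 lower, with a median of 0.01. Pltp, for a phospholipid transfer protein, was at 228 and 48.4 CPM, 4.70-fold higher, and the desaturase gene Scd1 was at 10198 and 3397 CPM, while Srebf1 and Nr1h3 itself had the lowest ratios. Of 10 measured FXR targets 2 were higher and 0 lower, with a median of −0.01. Osgin1 was 2.18-fold and Abcb4, a phospholipid floppase gene, 1.65-fold higher, Fgfr4 and Baat had log2 ratios of −0.53 and −0.44, and Fetub, the most abundant, one of −0.21. LRH-1 targets had 5 of 10 higher and 1 lower, with a median of 0.43 beside −0.04 for Nr5a2. Pltp and Foxq1 led at 4.70-fold and 2.40-fold, Abcg5 and Cyp7a1 were lowest, and Scarb1 was at 266 and 237 CPM.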

How the data were processed

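The files the authors deposited hold raw counts by gene symbol, in whole numbers, with 1 table per library. Per the labels' protocols, Trizol RNA (500 ng) entered a LEXOGEN mRNA-Seq kit. TopHat, edgeR and build mm10 are named in the submitters' processing notes. No source used here names the counter, its annotation, its use of strand or its treatment of multiple alignments. Of genes with between 1 and 49 counts, those with an even count were 50.7% (library labelled LKO) and 54.4% (control) where RefSeq has 1 curated transcript, and 67.2% and 67.9% where it has 2. A read may thus have been counted once per transcript, which narrows intervals and raises levels.

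TMM factors were computed with edgeR 4.0.16 (R 4.3.3) and applied to CPM (1.16 for the library labelled LKO, 0.865 for the control library). Each ratio has a 95% Clopper-Pearson interval conditional on the summed count, and ratios of 2 genes within a library have Woolf intervals. Intervals and floors (3 counts) cover counting error only, since PCR copies are not independent molecules. Where a library had a count of 0, a floor of 3 counts was used. Total counts were 131843686 and 128201591, and no p-value was computed, as the design has 1 library per group. The procedure was tested on simulated data that held counting error only. Such data cannot show how it fares with variation between animals or with reads counted more than once.

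Lengths and coordinates are from GENCODE M21, and promoter windows from RefSeq (GRCm38.p6). Of 24421 symbols, 24335 matched. The receptor genes, target lists and markers were chosen with earlier results of these data known, and the pairs of receptor genes and the motifs after their values were seen. Every measured receptor gene is named. In each target list the 2 highest, the 2 lowest and the most abundant measured genes are named, except some that are not reported here, and Cyp2c55 and Hsd11b1 were added after their values were seen. Alternatives were total-count scaling, median of ratios from DESeq2 1.42.0, totals without the 20 most abundant genes, lowess removal of a length and GC trend (fraction 0.3), other filters, a 2-fold threshold, added counts of 0.5, and other lengths or counts per transcript.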

Additional observations from a re-analysis of the deposited data

How the results depend on the processing

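With total-count scaling, 15 receptor genes were higher and 0 lower, the median log2 ratio was 0.61, and 52 target genes were higher and 5 lower. Without a filter on low counts, 6 of 37 receptor genes were higher (Nr4a2 added) and 1 lower, against 13.5% and 11.9% of all genes. With totals that leave out the 20 most abundant genes, 7 of 30 were higher (Nr3c2 and Nr4a2 added) and 1 lower. Over all measured genes the shares were then 16.4% and 7.43%. The median log2 ratio of the receptor genes was 0.31 with these totals, and 39 target genes were higher and 6 lower. It was 0.19 with median of ratios scaling and 0.12 after removal of the length and GC trend. At a mean CPM of at least 5, 3 of 23 receptor genes were higher and 0 lower, against 8.46% and 8.50% of all genes that passed, as fewer genes were tested (Esrrg, Thra and Nr4a1 fall below it). At a threshold of 2-fold, 1 was higher and 0 were lower, and 25 target genes were higher and 5 lower. Over all measured genes the shares at 2-fold were 3.83% and 2.62%. The counts of receptor genes past the threshold were 5 and 1 with median of ratios scaling, with the trend removed and with intervals from counts per curated transcript. No receptor gene past the threshold changed sign under the 5 alternatives run on single genes. With total-count scaling 29 of 29 log2 ratios left their counting interval, with the trend removed 13, and with 0.5 counts added 0. Dividing counts by the number of curated transcripts left 23 (library labelled LKO) and 22 (control) genes at 1 CPM per kb or more, and the first 10 genes by level were shared in 10 and 9 cases. No paired analysis was possible because each genotype has 1 library. Depth limits the receptor genes that were not measured, apart from Nr4a2, whose interval of 3.13 to 8.09 excluded 1 and which the CPM filter left out. The counts of Kupffer cell and chaperone genes with total-count scaling were added after seeing the data.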
